A study of Homo sapiens with 4 samples.

Results

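The 46 genes described here encode the factors that start protein synthesis on the ribosome and extend the new chain: the eukaryotic initiation factors eIF1 to eIF6, the 4E-binding proteins (4E-BPs) and the elongation factors eEF1 and eEF2. They were taken by gene symbol from the 25192 genes of the deposited RNA-seq table, all 46 were present, and all 46 passed the filter on low counts along with 14099 genes in all. The list was set by gene name, with earlier results of these data known, and it does not hold every gene of these families. The series measured RNA from A549 cells, a human lung adenocarcinoma line, infected with a retrovirus made from the pLZRS-IRES-GFP vector. The EV group received the empty virus, which expresses GFP alone, and the FCN3 group received the virus that also expresses ficolin-3, a secreted lectin. RNA was collected 48 h after infection in both groups, with 2 libraries a group (EV 1 and 2, FCN3 1 and 2). Nothing in the labels says that the libraries of a group came from separate cultures. The p-values therefore measure only the spread between these libraries, which may be technical and is estimated in part over all genes.

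A eukaryotic ribosome is brought to the capped end of an mRNA by eIF4F, a complex of the cap-binding protein eIF4E, the scaffold eIF4G and the helicase eIF4A. The small subunit carries eIF1, eIF1A, eIF3, eIF5 and eIF2, which holds the initiator tRNA, and scans to the start codon. Cells set the rate of this process at a pair of well-known points: hypophosphorylated 4E-BPs take eIF4E away from eIF4G, and phosphorylation of eIF2α, the product of EIF2S1, blocks the exchange factor eIF2B. Both points act on proteins, which were not measured here, and many mRNAs of the translation apparatus begin with a pyrimidine tract at the cap that ties their translation to growth signals.

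The libraries held 35733735 (EV 1), 16353554 (EV 2), 35031565 (FCN3 1) and 20136068 (FCN3 2) expected counts, so both replicate 2 libraries were shallower. A floor of 3 counts corresponded to between 0.0840 and 0.183 counts per 1000000 (CPM), and the lowest value of any member in any library was 8.66 CPM, so low counts limited no member. FCN3 was read with 1 and 0 expected counts in the EV libraries and 722388 and 448352 in the FCN3 libraries, where it took 2.06% and 2.23% of all counts and 4.16% and 4.47% of transcripts per 1000000 (TPM). All 5 epithelial markers reached 1 TPM (KRT8, KRT18, KRT19, EPCAM and CDH1), with a summed level of 3634 to 5259 TPM. None of 4 alveolar markers (SFTPB, SFTPC, NAPSA and NKX2-1, summed 0.290 to 0.980 TPM) and none of 3 endothelial markers did, so the alveolar markers were near 0 in this lung line. Of the others, 1 of 3 fibroblast markers (COL1A1) and 1 of 3 leukocyte markers (CD14) did, with summed levels of 2.70 to 8.12 and 0.320 to 1.99 TPM over those lists. Bulk RNA cannot tell fewer cells of a kind from less RNA per cell.

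Levels below are CPM after TMM scaling, each difference is a log2 fold change of FCN3 over EV, and each test is edgeR's quasi-likelihood test with Benjamini-Hochberg adjustment over all 14099 tested genes. A gene was called at an adjusted p below 0.01 in the fit that paired libraries by replicate number (replicate block), which leaves 1 residual degree of freedom. That fit shares its estimate of spread across genes, so an SE or p-value does not rest on a gene's own libraries alone. Nothing in the labels says that a replicate number marks a shared culture or day. In that fit 22 of the 46 members were called, 47.8% against 36.2% of all tested genes: 14 were higher (30.4% against 19.1%) and 8 lower (17.4% against 17.1%). The share called lower was therefore close to that of all genes. In the fit without the replicate block edgeR called 0 of 46 members at this threshold, against 0.965% of all tested genes (0.738% higher and 0.227% lower). An unadjusted p below 0.05 was found for 12 members (26.1%) and for 3542 of all tested genes (25.1%), and the lowest adjusted p of a member was 0.018, for EIF4EBP1. At a threshold of 0.05, chosen after seeing the data, edgeR without the block called 4 members, all higher, against 7.19% of all tested genes (4.43% higher and 2.77% lower). They were EIF4EBP1, EIF1, EIF2S2 and EIF2A. DESeq2 called 14 members at 0.01 with the block, 11 higher and 3 lower, against 16.2% of its tested genes (8.1% higher and 8.08% lower). With no replicate block it called the same 4 members as edgeR did at 0.05, against 7.86% (4.43% higher and 3.43% lower). Every "rose" and "fell" below refers to the paired edgeR fit, and of the members so called these 4 were the ones that also passed in either unpaired fit.

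The changes were small. The median log2 fold change of the members was 0.08, against 0.01 for all tested genes, and the median absolute change was 0.16 against 0.22. Only 7 members (15.2%) differed by 0.3 or more on the log2 scale, against 38.6% of all tested genes, only 2 (4.35%) by 0.5 or more, against 20.9%, and none by 1. The split between higher and lower calls also depended on the scale. On log2(TPM + 1), where the median of all tested genes moved by −0.10 relative to the count fit, limma with the replicate block called 5 members higher and 12 lower, against 10.2% and 22.3% of all tested genes, in place of 14 and 8. With upper-quartile scaling the calls were 12 higher and 11 lower, while those over all tested genes went from 19.1% and 17.1% to 18.3% and 19.4%. The 5 members higher on the TPM scale were EIF4EBP1, EIF1, EIF2S2, EIF2A and EIF4A2, and all 8 members lower in the count fit were also lower there. The 12 members whose sign turned on the TPM scale were all uncalled in the count fit.

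**Figure D1:**
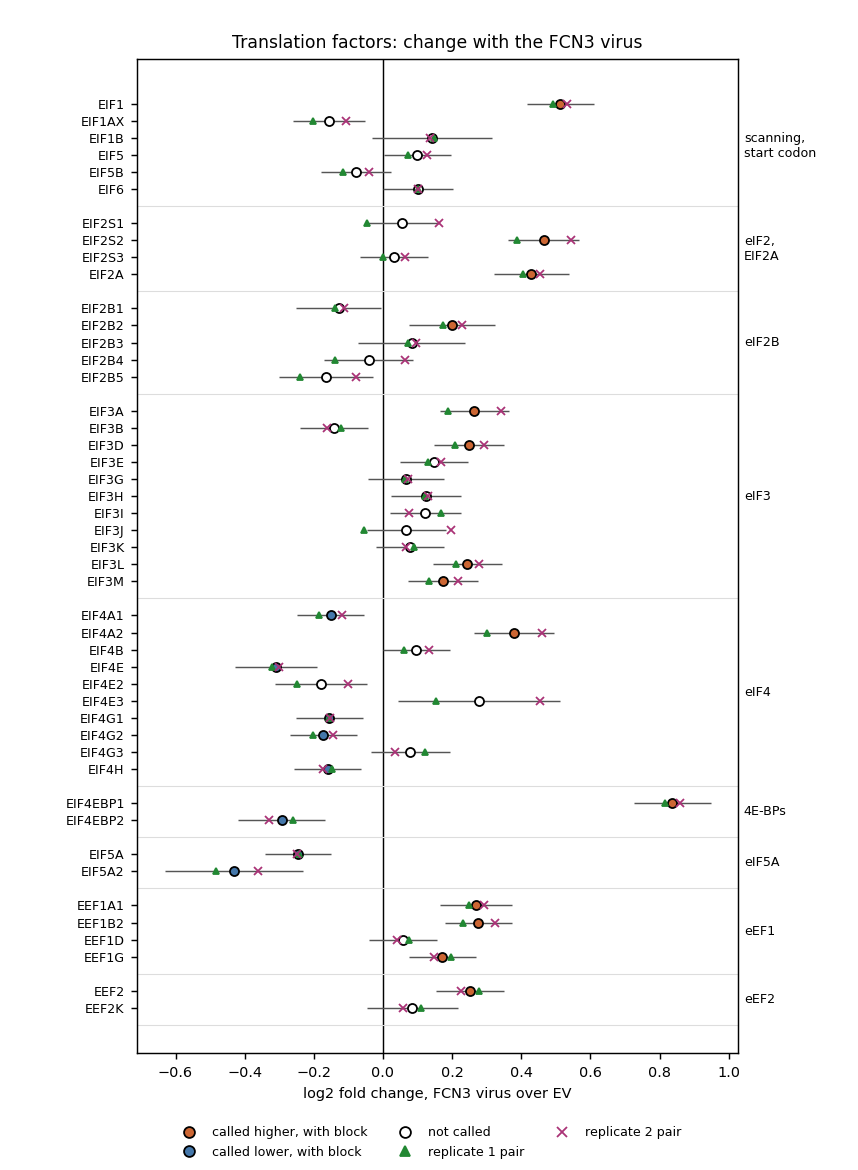
Log2 fold change (FCN3 virus over EV, horizontal axis) of each of the 46 members, arranged by role, with whiskers of 2 standard errors on each side from the paired edgeR fit. EIF4EBP1 stands farthest to the right at 0.84 and EIF5A2 farthest to the left at −0.43, while the eIF3 subunits lie between −0.14 and 0.26.

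The listed 4E-BPs moved apart. EIF4EBP1 (GRCh37, chromosome 8, 37888052 to 37917883, plus strand) encodes 4E-BP1, the repressor that competes with eIF4G for eIF4E. It was at 77.7 and 87.0 CPM in the EV libraries and at 137 and 158 CPM in the FCN3 libraries, or 82.4 ± 6.57 against 147 ± 15.0 (SD, n = 2). The FCN3 values were well clear of the EV values, and the gene rose 1.79-fold (log2 fold change 0.84, SE 0.06, edgeR adjusted p = 1.7e-18). The difference was 0.81 in the libraries of replicate 1 and 0.86 in those of replicate 2, DESeq2 gave an adjusted p of 1.1e-19 with the block and 3.4e-07 without it, and the change ranged from 0.73 to 0.84 over every alternative that kept all 4 libraries. It was the largest change of any member. EIF4EBP2 (chromosome 10, 72163901 to 72188374, plus strand), which encodes the related repressor 4E-BP2, was at 69.9 and 61.9 CPM in EV and at 58.4 and 49.3 CPM in FCN3. The groups did not overlap and the gene fell by 0.29 (SE 0.06, edgeR adjusted p = 0.00012), but the adjusted p was 0.22 without the block and 0.024 in DESeq2 with it, and the change was −0.19 without EV 1 and −0.18 without FCN3 2.

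EIF4E (chromosome 4, 99800427 to 99850284, minus strand), the cap-binding protein itself, was at 89.1 and 79.0 CPM in EV and at 71.4 and 64.2 CPM in FCN3, or 84.1 ± 7.12 against 67.8 ± 5.07 (SD, n = 2). All FCN3 values were below all EV values, with a fall of 0.31 (SE 0.06, edgeR adjusted p = 2.0e-05, and 0.15 without the block). The difference was −0.32 and −0.30 in the pairs of libraries. Since TPM is a level per length, the mRNA levels of repressor and target could be compared within each library, though not their proteins. The ratio of EIF4EBP1 to EIF4E mRNA was 4.46 and 5.85 in EV and 9.88 and 13.1 in FCN3. It was thus 2.21 and 2.25 times higher in the FCN3 library of each replicate number. The ratio of EIF4EBP2 to EIF4E was 0.376 and 0.389 in EV and 0.395 and 0.385 in FCN3, which is 1.05 and 0.988 times as high. With both listed 4E-BPs summed, the ratio to EIF4E was 4.84 and 6.24 in EV and 10.3 and 13.5 in FCN3. A ratio within a library does not depend on scaling, and with 2 libraries a group an exact permutation test of it cannot give a p below 0.333, so no test is attached.

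Among the cap-binding, scaffold and helicase factors, EIF4E included, most calls in the paired edgeR fit were lower. Of the 10 genes of this group 5 fell (EIF4E, EIF4A1, EIF4G1, EIF4G2 and EIF4H) and 1 rose (EIF4A2), and their median log2 fold change was −0.15. Of all tested genes 17.1% fell and 19.1% rose. DESeq2 with the block also called EIF4A2 higher and EIF4E and EIF4G2 lower. It did not call EIF4A1, EIF4G1 and EIF4H (DESeq2 adjusted p = 0.025, 0.029 and 0.028). EIF4A1, which encodes the main RNA helicase of eIF4F, was at 1865 and 1667 CPM in EV and at 1641 and 1537 CPM in FCN3, a fall of 0.15 (SE 0.05, edgeR adjusted p = 0.0086, and 0.42 without the block). EIF4G1, its scaffold, was at 683 and 638 CPM in EV and at 613 and 573 CPM in FCN3, a fall of 0.15 (SE 0.05, adjusted p = 0.0065). The FCN3 libraries were lower for both genes, but in each of them the nearest EV and FCN3 libraries lay closer together than the EV libraries did. Without EV 1 the log2 fold changes were −0.06 for EIF4A1 and −0.09 for EIF4G1, and without EV 2 that of EIF4A1 was −0.23. EIF4G2, a scaffold that lacks the eIF4E-binding part, fell by 0.17 and EIF4H, a helper of the helicase, by 0.16, with edgeR adjusted p-values of 0.0026 and 0.0052, and were at −0.09 and −0.10 without EV 1 (EIF4H also at −0.10 without FCN3 2). With FCN3 left out before normalization, these 4 genes no longer passed (edgeR adjusted p = 0.039, 0.021, 0.015 and 0.016 for EIF4A1, EIF4G1, EIF4G2 and EIF4H), although their log2 fold changes hardly moved, at −0.15, −0.15, −0.17 and −0.16. The summed TPM of the group was 4164 and 3763 in EV and 3454 and 3335 in FCN3.

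EIF4A2 went the other way from its close relative EIF4A1. It encodes the second eIF4A helicase (chromosome 3, 186500994 to 186507686, plus strand) and was at 82.6 and 92.1 CPM in EV and at 102 and 127 CPM in FCN3, a rise of 0.38 (SE 0.06, edgeR adjusted p = 2.2e-07, and 0.15 without the block). The groups did not overlap, but replicate 2 was also above replicate 1 in both groups, by 0.24 (edgeR adjusted p = 0.00097), and the rise was 0.22 without FCN3 2. The ratio of EIF4A1 to EIF4A2 in TPM was 22.8 and 18.3 in EV and 16.3 and 12.2 in FCN3, or 0.714 and 0.670 times as high within the replicate pairs. EIF4A2 overlaps RFC4 on the opposite strand, EIF4A1 shares its sequence with the readthrough gene SENP3-EIF4A1, and the paralogs resemble each other, so the division of reads among them by the authors' counting is uncertain. The 4 other members of the group were uncalled: the log2 fold changes were 0.10 for EIF4B (adjusted p = 0.097), −0.18 for the cap-binding relative EIF4E2 (0.024), 0.28 for EIF4E3 (0.047) and 0.08 for EIF4G3 (0.26) by edgeR. EIF4E3 was the lowest member at a mean of 3.09 TPM, and on the TPM scale the values of EIF4B and EIF4G3 were −0.01.

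Of the factors that select the start codon and join the subunits, 1 of 6 rose, against 19.1% of all tested genes. EIF1 (chromosome 17, 39845137 to 39848920, plus strand), which guards the accuracy of start-codon choice, was at 471 and 437 CPM in EV and at 662 and 632 CPM in FCN3, or 454 ± 24.1 against 647 ± 21.7 (SD, n = 2). The gap between groups was several times the gap within them, and the gene rose 1.43-fold (log2 0.51, SE 0.05, edgeR adjusted p = 4.8e-13, and 0.031 without the block). DESeq2 called it with the block and without it (adjusted p = 0.00049 without). EIF1B, which encodes a near-identical protein, was at 21.2 and 18.6 CPM in EV and at 23.5 and 20.5 CPM in FCN3, with overlapping groups, a log2 fold change of 0.14 and an edgeR adjusted p of 0.18. The ratio of EIF1 to EIF1B in TPM was 16.2 and 17.1 in EV and 20.5 and 22.5 in FCN3. The other 4 were uncalled by edgeR: EIF1AX at −0.16 (adjusted p = 0.012), EIF5 at 0.10 (0.09), EIF5B, the joining factor, at −0.08 (0.20) and EIF6, which keeps free large subunits apart, at 0.10 (0.095). On the TPM scale EIF5 and EIF6 were just below 0.

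The subunits of eIF2 did not move together. EIF2S2 (chromosome 20, 32676115 to 32700049, minus strand), which encodes eIF2β, was at 243 and 234 CPM in EV and at 318 and 341 CPM in FCN3, or 238 ± 6.12 against 329 ± 16.3 (SD, n = 2). Both FCN3 libraries were higher, and it rose 1.38-fold (log2 0.46, SE 0.05, edgeR adjusted p = 5.3e-11, and 0.035 without the block). EIF2S1, which encodes eIF2α, was at 217 and 168 CPM in EV and at 210 and 188 CPM in FCN3, so the groups overlapped and the log2 fold change was 0.06 (SE 0.05, edgeR adjusted p = 0.41). EIF2S3, for eIF2γ, was at 399 and 333 CPM in EV and at 399 and 348 CPM in FCN3, with a log2 fold change of 0.03 (SE 0.05, edgeR adjusted p = 0.64). For these 2 genes the replicate number mattered more than the virus, with replicate 2 lower by −0.26 and −0.23 (edgeR adjusted p = 0.00012 and 0.00023), and on the TPM scale their log2 fold changes were −0.04 and −0.07. The ratio of EIF2S2 to EIF2S1 in TPM was 1.85 and 2.30 in EV and 2.50 and 2.99 in FCN3, and that of EIF2S2 to EIF2S3 was 0.828 and 0.957 in EV and 1.08 and 1.33 in FCN3. EIF2S2 overlaps RALY on the opposite strand, which had 4978 and 2517 expected counts in EV and 4368 and 2597 in FCN3. The libraries were made with a stranded kit, but whether the counting used strand is not given in the sources used here.

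EIF2A, an initiator tRNA-binding factor unrelated to the eIF2 trimer despite its name (chromosome 3, 150264465 to 150303803, plus strand), was at 112 and 108 CPM in EV and at 149 and 148 CPM in FCN3, or 110 ± 2.78 against 148 ± 0.0827 (SD, n = 2). It rose 1.35-fold (log2 0.43, SE 0.05, edgeR adjusted p = 2.7e-09, and 0.037 without the block), and DESeq2 without the block gave an adjusted p of 0.0088. Its promoter is shown because it was the only one of the 38 member promoters in the RefSeq table (GRCh38.p14, 250 bases before to 50 after the start) that held the ER stress element, CCAAT and CCACG with 9 bases of any kind between them, which is bound by ATF6 with NF-Y in textbook targets. Both strands were searched, and 22 of 27305 promoters (0.0806%) held the element. This motif was chosen with earlier results known, and the capitals mark it.
EIF2A, chr3:150546690-150546748, plus strand: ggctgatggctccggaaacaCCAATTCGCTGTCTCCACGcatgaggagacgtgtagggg
The element lies 59 to 77 bases before the EIF2A start, within the 291 bases that separate this start from that of SERP1, a gene of the ER translocon that runs the opposite way. SERP1 was at 105 and 90.8 CPM in EV and at 241 and 222 CPM in FCN3, and rose by more than EIF2A (log2 1.24, SE 0.05, edgeR adjusted p = 4.1e-26, and 0.0066 without the block). The annotated extents of EIF2A and SERP1 overlap, so the reads of the pair could not be fully told apart if the counting did not use strand. Of the 13 tested genes whose promoter held the element, the pair included, 12 were called higher, with a median of 1.24 and a range of −0.02 to 3.68. Over all tested genes 19.1% were called higher, with a median of 0.01. HSPA5, CALR, HSP90B1, XBP1 and CRELD2 were among the 13. A match is only a description of letters, and whether a factor bound there was not tested.

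Of the 5 subunits of eIF2B, the exchange factor for eIF2, 1 rose, against 19.1% of all tested genes. EIF2B2 was at 57.7 and 58.4 CPM in EV and at 65.1 and 68.4 CPM in FCN3, which did not overlap (log2 0.20, SE 0.06, edgeR adjusted p = 0.0068, and 0.23 without the block). DESeq2 with the block gave it 0.22. The log2 fold changes of EIF2B1, EIF2B3, EIF2B4 and EIF2B5 were −0.13, 0.08, −0.04 and −0.16, none of them called by edgeR (adjusted p = 0.084, 0.40, 0.63 and 0.043). EIF2B3 was at −0.03 on the TPM scale, and EIF2B4 differed more by replicate number, 0.25 higher in replicate 2, than by virus.

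The 11 listed subunits of eIF3, the large scaffold on the small ribosomal subunit, lay close together. Their levels in TPM ranged from a mean of 91.0 (EIF3J) to 750 (EIF3K), and the median log2 fold change was 0.13. Of the 11, 4 rose and none fell, against 19.1% and 17.1% of all tested genes. EIF3A, which encodes the largest subunit, was at 638 and 557 CPM in EV and at 728 and 706 CPM in FCN3, a rise of 0.26 (SE 0.05, edgeR adjusted p = 1.2e-05, and 0.18 without the block) that was 0.17 without EV 2. EIF3D, whose product can itself bind a cap, was at 229 and 217 CPM in EV and at 264 and 266 CPM in FCN3 and rose by 0.25 (edgeR adjusted p = 5.1e-05). EIF3L and EIF3M rose by 0.24 and 0.17 (edgeR adjusted p = 6.2e-05 and 0.0037). The call of EIF3M was lost in DESeq2 with the block (adjusted p = 0.093), and edgeR without the block gave it 0.25. None of the 4 was called on the TPM scale, where their log2 fold changes were 0.16, 0.15, 0.14 and 0.07. The log2 fold changes of the uncalled subunits were 0.15 for EIF3E, 0.07 for EIF3G, 0.13 for EIF3H, 0.12 for EIF3I, 0.07 for EIF3J, 0.08 for EIF3K and −0.14 for EIF3B, the only value below 0. On the TPM scale EIF3G, EIF3J and EIF3K were also below 0. The FCN3 libraries were both above the EV libraries for 7 subunits and both below for 1, against 28% and 26.5% of all tested genes.

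Both genes of eIF5A, the hypusine-bearing factor that eases peptide bond formation at difficult residues, fell. EIF5A (chromosome 17, 7210318 to 7215782, plus strand) was at 1332 and 1242 CPM in EV and at 1125 and 1045 CPM in FCN3, a fall of 0.25 (SE 0.05, edgeR adjusted p = 2.6e-05, and 0.18 without the block). EIF5A2 (chromosome 3, 170606207 to 170626433, minus strand), a paralog first known for its amplification in tumours, was at 18.9 and 15.3 CPM in EV and at 13.6 and 11.9 CPM in FCN3, a fall of 0.43 (SE 0.10, edgeR adjusted p = 0.00034). Neither pair of groups overlapped, but for EIF5A2 DESeq2 with the block gave an adjusted p of 0.095, so that call was lost there, and its change was −0.25 without EV 1. The summed TPM of the pair was 2089 and 1930 in EV and 1620 and 1530 in FCN3, nearly all of it from EIF5A, which was 322 to 402 times the level of EIF5A2.

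Of the 4 listed genes of eEF1, 3 rose and none fell, against 19.1% and 17.1% of all tested genes. EEF1A1 (chromosome 6, 74199031 to 74235310, minus strand), which delivers aminoacyl-tRNA and was the most abundant member, was at 8499 and 8063 CPM in EV and at 10097 and 9869 CPM in FCN3, a rise of 0.27 (SE 0.05, edgeR adjusted p = 2.3e-05, and 0.23 without the block). EEF1B2, a subunit of its exchange factor, was at 496 and 485 CPM in EV and at 582 and 606 CPM in FCN3, a rise of 0.28 (SE 0.05, edgeR adjusted p = 4.7e-06). EEF1G, another subunit, rose by 0.17 (edgeR adjusted p = 0.0028, and 0.013 at 0.18 with FCN3 left out before normalization). DESeq2 with the block gave EEF1G an adjusted p of 0.021 and did not call it. EEF1D was at 0.06 (edgeR adjusted p = 0.35), or −0.04 on the TPM scale. In all 4 genes both FCN3 libraries were above both EV libraries, which held for 28% of all tested genes. EEF2 (chromosome 19, 3976054 to 3985461, minus strand), the translocase, was at 1795 and 1633 CPM in EV and at 2177 and 1909 CPM in FCN3, a rise of 0.25 (SE 0.05, edgeR adjusted p = 2.2e-05, and 0.24 without the block). Here too replicate 2 was lower than replicate 1 in both groups, and the change was 0.16 without FCN3 1. EEF2K, which encodes the kinase that inactivates eEF2, was at 50.1 and 46.1 CPM in EV and at 54.1 and 48.0 CPM in FCN3, with overlapping groups (log2 0.09, edgeR adjusted p = 0.30, and −0.02 on the TPM scale). On that scale limma called none of the 6 listed elongation genes. EEF1A1 has many near-identical pseudogene copies, so its level also depends on how the authors' counting divided shared reads.

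**Figure D2:**
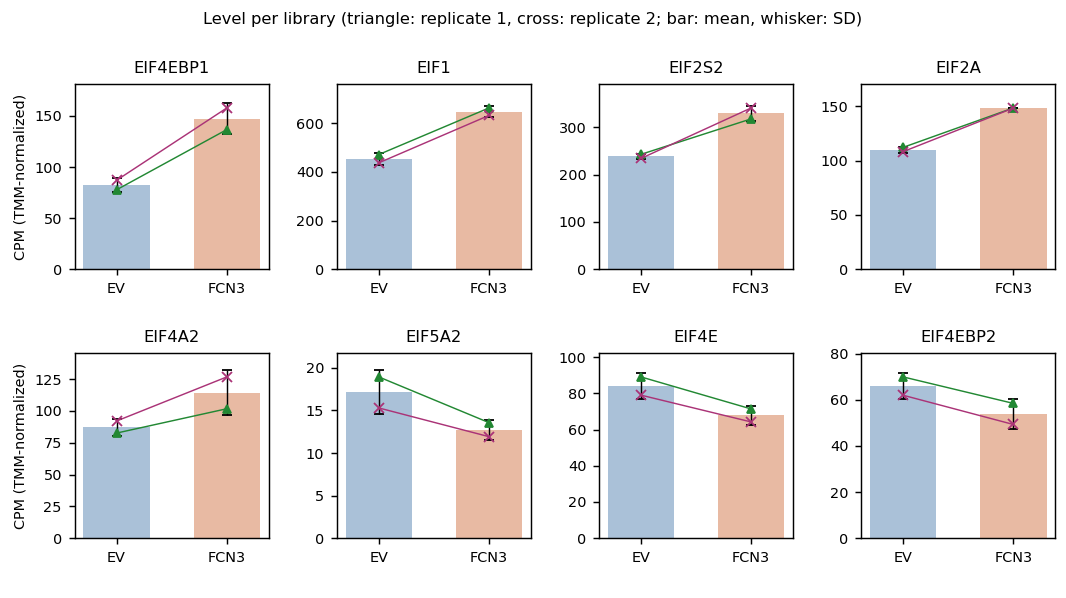
TMM-scaled CPM (vertical axes, from 0) of 8 members in EV and FCN3, with bars for the mean, whiskers for the SD (n = 2) and lines joining libraries of the same replicate number (triangles for replicate 1, crosses for replicate 2). Both FCN3 values exceed both EV values for EIF4EBP1 (137 and 158 against 77.7 and 87.0) and lie below them for EIF4E (71.4 and 64.2 against 89.1 and 79.0).

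**Figure D3:**
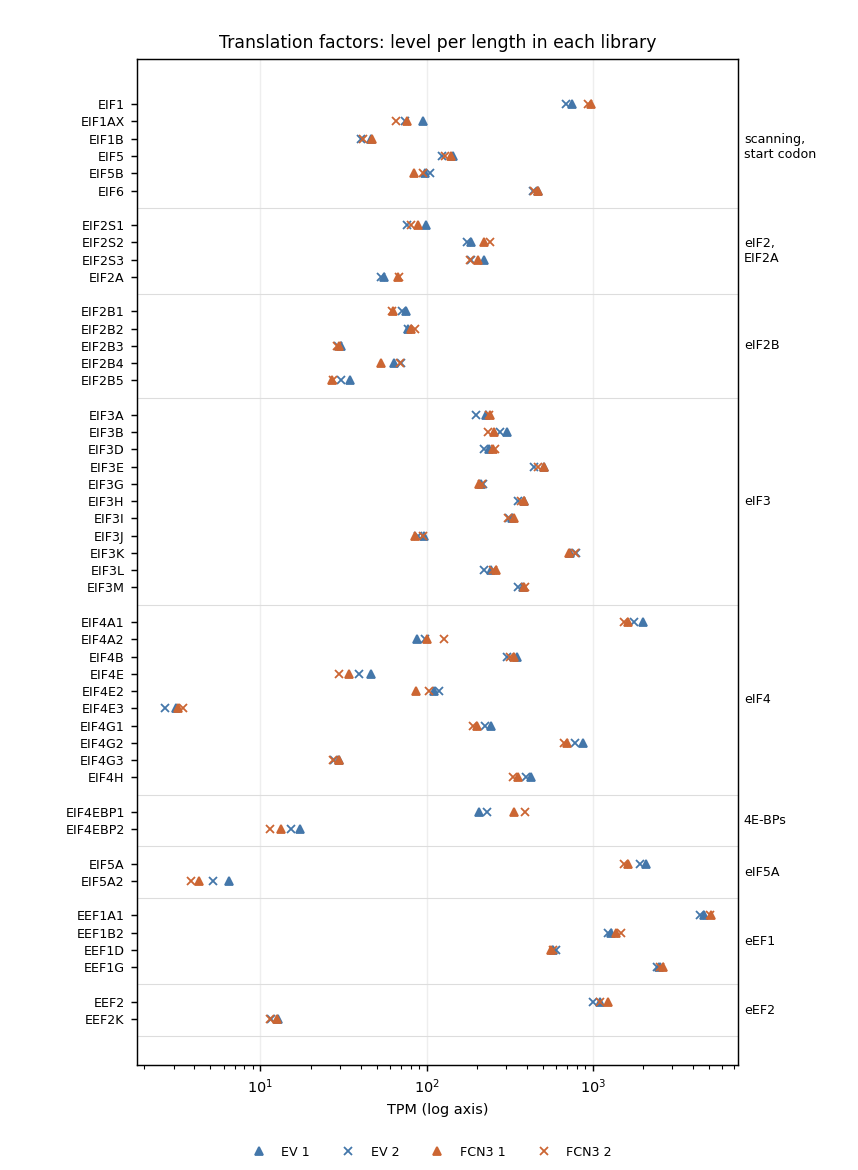
TPM (horizontal log axis), a level per length, of each of the 46 members in each of the 4 libraries, arranged by role, with blue for EV and orange for FCN3, triangles for replicate 1 and crosses for replicate 2. Mean levels span from 3.09 for EIF4E3 to 4797 for EEF1A1.

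Start sites are shown for the 6 called members whose annotated start in RefSeq (GRCh38.p14) is a C followed by at least 4 pyrimidines, the form of the 5′ terminal oligopyrimidine tract. Each line gives 5 bases before the start and 20 from it, with the tract in capitals, and the motif was chosen with earlier results known.
EEF1A1, chr6:73521013-73521037, minus strand: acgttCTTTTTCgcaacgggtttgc
EEF2, chr19:3985444-3985468, minus strand: gcgttCTCTTCCgccgtcgtcgccg
EIF2A, chr3:150546782-150546806, plus strand: ggtttCTCTTTCCgggacaacatgg
EIF3D, chr22:36529147-36529171, minus strand: gtttcCTCTTTTCCTggtttctcaa
EIF3M, chr11:32583826-32583850, plus strand: gttccCTTTTCCggtcggcgtggtc
EIF4A2, chr3:186783572-186783596, plus strand: gctgtCTTTTCagtcgggcgctgag
The other 3 members with such a start were EIF2S3, EIF3K and EIF4B. Together they were 9 of the 38 members with a RefSeq promoter (23.7%), against 4.04% of all 27305 promoters. All 9 had a log2 fold change above 0 (0.03 to 0.43, median 0.25), 6 were called higher and 0 lower, while on the TPM scale EIF2S3, EIF3K and EIF4B were below 0 and 2 of the 9 were called. The 29 members with another start had a median of −0.04, with 4 called higher (EIF1, EIF2B2, EEF1B2 and EEF1G) and 8 lower. This contrast leaves out 8 members whose start was not looked at here, EIF4EBP1 and EIF2S2 among them, which were all above 0 (EIF3G and EEF1D below 0 on the TPM scale), with a median of 0.20, 4 called higher and 0 lower. Over all genes the contrast was slight: 530 tested genes with such a start had a median of 0.05, with 24.2% called higher, and 9407 with another start a median of 0.01, with 19.6% called higher. An annotated start is 1 position per gene and was not measured in these cells, so a member sorted under another start could still begin with such a tract.

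Libraries of the 2 groups did not overlap for 33 of the 46 members (71.7%), 21 higher and 12 lower in FCN3, against 54.5% of all tested genes (28% higher and 26.5% lower). The difference between replicate numbers was itself called for 10 members (21.7%, against 22.2% of all tested genes). Replicate 1 was the higher library in both groups for 31 members (67.4%, against 39.8% of all genes), and replicate 2 for 9. The absolute difference by virus was larger than that by replicate number for 34 members. No share over all tested genes was computed for this count or for the 9, so neither is read as a trait of the members. Replicate number moved with sequencing depth, and the part of depth in these differences was not tested.

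**Figure D4:**
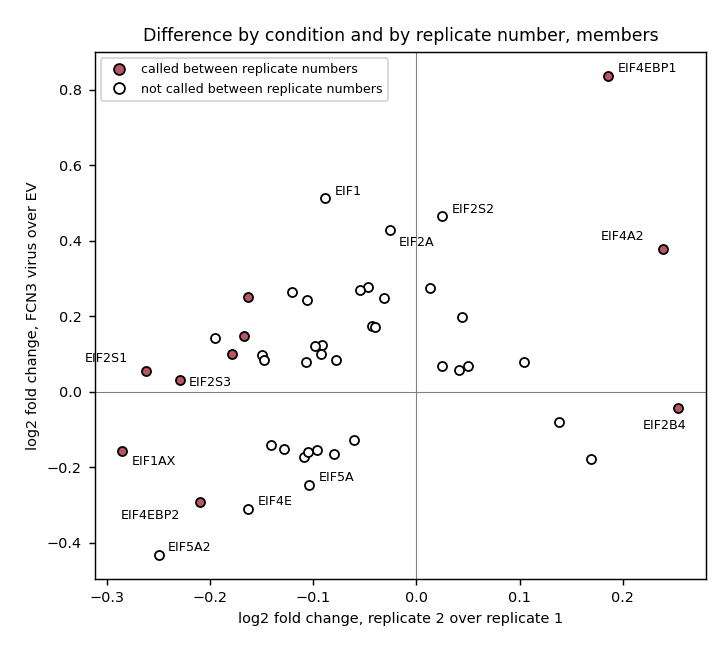
Log2 fold change between conditions (vertical axis, FCN3 virus over EV) against that between replicate numbers (horizontal axis, replicate 2 over 1) for the 46 members, from the same edgeR fit, with filled points for the 10 members called between replicate numbers. EIF4EBP1 is highest at 0.84, with 0.19 between replicates, while EIF2S1 lies near 0 by condition and at −0.26 between replicates.

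Neighbouring genes of the pathway, in 5 lists, were read from the same paired fit. The counts below stand against 19.1% of all tested genes called higher there and 17.1% called lower. Of 26 regulators and partners of initiation, 7 rose and 2 fell, with a median log2 fold change of 0.04. PPP1R15A, which encodes GADD34, the phosphatase subunit that restores eIF2α, was at 53.1 and 61.8 CPM in EV and at 196 and 205 CPM in FCN3 (log2 1.81, SE 0.06, edgeR adjusted p = 4.6e-32, and 0.0028 without the block). EIF2AK3, which encodes PERK, the eIF2α kinase of the ER, was at 25.7 and 26.4 CPM in EV and at 73.5 and 70.5 CPM in FCN3 (log2 1.47, SE 0.07, edgeR adjusted p = 8.6e-25, and 0.0030 without the block). These were the only genes of the lists called by edgeR without the block, and both changed by more than any member. The eIF4E kinase gene MKNK2 rose by 0.76, IMPACT, an inhibitor of GCN2, by 0.63, and PDCD4, an inhibitor of eIF4A, by 0.62, with edgeR adjusted p-values of 2.8e-14, 5.2e-10 and 6.5e-10. PABPC1, the poly(A)-binding protein, rose by 0.27 and the adaptor NCK1 by 0.31, while the heme-regulated eIF2α kinase EIF2AK1 fell by 0.22 and BZW1, an eIF5 mimic, by 0.31.

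Of 12 genes of termination, recycling and ribosome rescue, 4 rose and none fell: GTPBP2 (log2 1.06), PELO (0.50), ASCC3 (0.29) and LTN1 (0.21). Of the 9 genes for the hypusine on eIF5A and the diphthamide on eEF2, 7 were analysed here, and 2 rose (DNAJC24 at 0.35 and DPH5 at 0.23) and 2 fell (DPH2 and DHPS, both at −0.28). DHPS encodes the enzyme that starts hypusine synthesis, and was at 31.0 and 32.0 CPM in EV and at 26.4 and 25.4 CPM in FCN3. Of 11 genes of mTORC1 and S6 kinase, the pathway that phosphorylates 4E-BP1 and ribosomal protein S6, TSC1 rose by 0.24 and RPS6KB1 and RPS6KB2 fell by 0.20 and 0.25. Of 10 mitochondrial translation factors, MTIF2 and GFM2 rose by 0.31 and 0.25 and TSFM fell by 0.33. On log2(TPM + 1) the calls over the 5 lists were 7 higher and 12 lower in place of 16 and 7. Of all tested genes, 10.2% were called higher and 22.3% lower on that scale.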

How the data were processed

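A549 cells carrying the EV or the FCN3 virus were profiled by RNA-seq (2 libraries a group). The authors aligned reads to hg19 with STAR 2.6.1d and quantified genes with RSEM, and the deposited table for each library holds RSEM expected counts, TPM, FPKM and transcript lengths (other, in bases) per gene, as deposited by the authors. The gene annotation and strand setting are not given in the sources used here. Expected counts were rounded, filtered with filterByExpr, scaled by TMM and tested with edgeR 4.0.16 (limma 3.58.1, R 4.3.3) with condition and replicate number as terms, at an adjusted p below 0.01 over 14099 genes. SEs were derived as the size of the log2 fold change over the root of its F statistic. The replicate number was kept as a block because the comparison was set up by replicate number. The labels do not say that a number marks a shared culture or day, and the replicate differences of EV and FCN3 correlated over 8310 genes (Pearson's r = 0.806 across genes, which are not independent). Both fits are given. Alternatives were DESeq2 1.42.0, limma-voom, other scalings and filters, TPM with a pseudocount of 1 or 0.1, and each library left out. FPKM and counts per length served only to recompute ratios, which equalled those from TPM at 2 significant digits. The members and lists were chosen with earlier results of these data known. Values in all 4 libraries were given for called members with a log2 fold change of 0.3 or more in size, and always for EIF4EBP1, EIF4EBP2, EIF4E, EIF2S1, EIF4G1, EIF4A1, EIF4A2, EEF1A1, EEF2, EEF2K, EIF5A and EIF5A2. From each neighbouring list up to 4 called genes were named by size. EIF2S3, EIF1B, EIF2B2, EIF3A, EIF3D, EEF1B2, SERP1 and the further called neighbours were added after their values were seen. RefSeq promoters (GRCh38.p14) matched 38 of 46 members by symbol. Floors cover counting error only. SEs are from the paired fit, so they hold only the spread between libraries left after the replicate number was taken out. They rest in part on information shared across genes, and were 0.05 both for EIF6 (pairs 0.10 and 0.10) and for EIF2S1 (pairs −0.04 and 0.16). Without the block they were larger for EIF4EBP1 (0.11 in place of 0.06) and EIF4A2 (0.13 in place of 0.06), for example.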

Additional observations from a re-analysis of the deposited data

How the results depend on the processing

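The replicate block decided the calls. Without it edgeR called 104 genes higher and 32 lower over all genes, 0 and 0 members, and 2 and 0 genes of the neighbouring lists. Leaving out each library in turn, without the block since a paired fit then has no residual degrees of freedom, gave 78 to 195 higher and 13 to 90 lower over all genes, 0 and 0 members, 2 to 3 and 0 neighbours, and a member median of 0.0510 to 0.16; the lone library is assumed to vary like the other group. An FDR of 0.05 without the block, chosen after seeing the data, gave 624 and 390 genes, 4 and 0 members, and 6 and 0 neighbours. DESeq2 gave 1107 and 1105 genes, 3 members lower, 9 and 1 neighbours and a member median of 0.0717 with the block, and 590 and 457 genes, 4 and 0 members, 5 and 0 neighbours and a median of 0.0710 without it. The lower calls among members went to 4 with FCN3 left out before normalization and to 5 with no filter on low counts (2398 and 1956 over all genes, in place of 2413, or 17.1% and 10.5% of the genes tested), and the member median was 0.0621 with upper-quartile factors. A minimum absolute log2 fold change of 0.5 left 1247 and 893 genes, 2 and 0 members, and 6 and 0 neighbours.

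On log2(TPM + 1) and log2(TPM + 0.1) with the replicate block, the higher calls were 1437 and 1378 over all genes and 5 members on both, the neighbours were 7 higher on both and 12 and 11 lower, and the member median was −0.0119 and −0.0127. Signs turned, in that order of pseudocounts, for EIF2S1 (−0.0440 and −0.0444), EIF2S3 (−0.0710 and −0.0713), EIF2B3 (−0.0296 and −0.0304), EIF3G (−0.0360 and −0.0362), EIF3J (−0.0314 and −0.0318), EIF3K (−0.0253 and −0.0254), EIF4B (−0.00613 and −0.00614), EIF4G3 (−0.00643 and −0.00665), EIF5 (−0.00315 and −0.00316), EIF6 (−0.00207 and −0.00208), EEF1D (−0.0430 on both) and EEF2K (−0.0175 and −0.0188). FCN3 itself took 4.16% and 4.47% of the TPM of its libraries, and its part in this shift was not tested. With 1 library left out in turn, the range crossed 0 for EIF1AX (−0.317 to 0.0279), EIF2S1 (−0.123 to 0.255), EIF2S3 (−0.0969 to 0.176), EIF2B4 (−0.215 to 0.138), EIF3J (−0.00462 to 0.144), EIF5 (−0.00242 to 0.215), EIF5B (−0.167 to 0.00841) and EEF2K (−0.00618 to 0.168). The cause of these changes was not tested. Each of these members was uncalled in the paired fit. The 22 members called there kept their sign without each library, and 9 of them moved by over 1.5 times: EIF3A, EIF4A1, EIF4A2, EIF4EBP2, EIF4G1, EIF4G2, EIF4H, EIF5A2 and EEF2.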

Other observations

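RSEM's mean transcript length was the same in all 4 libraries for 31 members, and the largest change among the other 15 was 1.72%. Among members with a RefSeq promoter, 6 of 38 had a divergent neighbour within 1000 bases, and 3 of these neighbours had the opposite sign to the member. The E-box CACGTG was in 9 of 38 member promoters (23.7%) against 7.43% of all, the CHOP-ATF4 type element TGATGNAA in 0 against 3.67%, and TGACGTG in 0 against 546 of 27305 promoters, with both strands searched. No match says only that these letters are not in the windows. The 8 members with no RefSeq promoter here, EIF4EBP1 and EIF2S2 among them, were not searched.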
